A study of Mus musculus with 8 samples.

Results

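The actin and tropomyosin genes of the mouse comprise 10 genes of 21951 protein-coding genes, chosen by name: the muscle actin genes Acta1, Actc1, Acta2 and Actg2, the cytoplasmic actin genes Actb and Actg1, and the tropomyosin genes Tpm1, Tpm2, Tpm3 and Tpm4. In and within 100 kb of them lay 64 of the 22292 WFS1 peaks described here, a peak being a stretch of genome called as enriched after immunoprecipitation. WFS1, or wolframin, is a membrane protein of the endoplasmic reticulum, and the study asked which genomic regions it associates with in the inner nuclear membrane of myoblasts. Chromatin was taken from proliferating wildtype C2C12 cells, a mouse myoblast line that fuses into myotubes on differentiation, and was crosslinked with DSG, a protein crosslinker, and formaldehyde. Of 8 libraries, 2 are used here, each the only library of its condition: a WFS1 ChIP sonicated for 30 cycles, and a part of the same immunoprecipitation sonicated for 6 further cycles, to 36 in all. The other 6 libraries, which are the inputs and those of cells with a WFS1 knockout made by CRISPR/Cas9 and sgRNAs that express WFS1-FlagTag, were not used here.

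Actin monomers assemble into filaments that carry myosin-driven contraction in muscle and form the cortex, stress fibres and protrusions of other cells. Tropomyosin lies along the filament and sets which myosins and regulators can reach it, and in striated muscle it holds the calcium-sensing troponin complex. Striated muscle actins are made mainly after myoblasts differentiate, smooth muscle actins mark contractile smooth muscle and activated mesenchymal cells, and cytoplasmic actins are made in nearly every cell. Tpm1, Tpm2 and Tpm3 give several products by splicing, and Tpm1 and Tpm3 also use an internal promoter for short, non-muscle products. SRF, a transcription factor that binds the CArG box, drives many actin genes together with cofactors that are held back by free actin monomers.

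The 30-cycle list held 18283 peaks and the 36-cycle list 12674, and peaks that overlapped between them were merged to give the combined set. The lists give positions on GRCm38 and no height, score or read count, so sequencing depth is unknown, no test between conditions was possible, and the presence and width of a peak are the only values. Intervals are 95% Wilson intervals for shares, exact Poisson intervals for peaks per Mb and normal approximations for differences of peaks per Mb, and all cover counting error over peaks only, and neighbouring peaks are not independent of each other. Start sites are the 5′ ends of genes in GENCODE mouse release 21, and distances run from there to the nearest edge of a peak.

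WFS1 peaks lay within 1 kb of the start site in 4 of the 10 genes, Acta2, Actg1, Tpm2 and Tpm4, set beside 13.2% of all protein-coding genes. The 30-cycle list alone gave the same 4 genes, with 11.0% of all genes, and the 36-cycle list alone gave 1, Tpm2, with 6.02% of all genes. When every annotated transcript start was used, Tpm1 joined them, for 5 of 10 genes and 16.4% of all genes. A peak touched the body of 4 genes, Acta2, Actg1, Tpm1 and Tpm2, against 24.7% of all genes. At least 1 peak lay in or within 100 kb of 9 of the 10 genes, against 73.4% of all genes, and at least 3 peaks lay there in 6, against 46.2%. The median count was 5.5 peaks per gene, ranging from 0 to 20, and the median over all protein-coding genes was 2. From the start site to the nearest peak, the median distance was 3.19 kb for the 10 genes and 41.7 kb for all protein-coding genes.

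**Figure D1:**
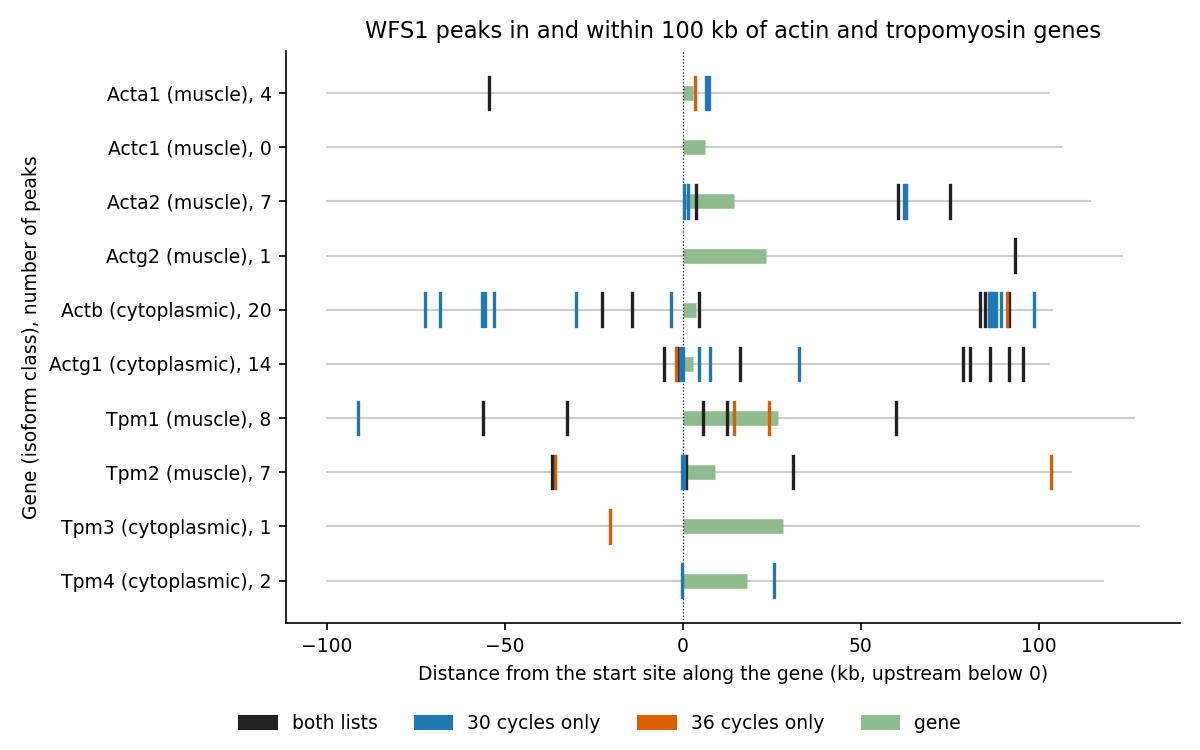
Every WFS1 peak in and within 100 kb of each actin and tropomyosin gene, by distance from the start site in kb along the gene, with upstream below 0. Ticks mark peak centres, coloured by the list that held the peak, grey lines show the searched windows, and the number beside each name is its peak count. Actb with 20 and Actg1 with 14 peaks have the most, and Actc1 has 0.

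The striated muscle actins had no peak in the gene or within 1 kb of the start site. Acta1, the skeletal muscle alpha-actin (ENSMUSG00000031972, chr8:123891769-123894751, minus strand), had 4 peaks in its window, a count reached by 36.0% of protein-coding genes. Of these, 3 lay just past its 3′ end: a 318 bp peak of the 36-cycle list 0.236 kb beyond it, and peaks of 333 and 259 bp of the 30-cycle list 3.50 and 4.25 kb beyond it. The other, 357 bp and in both lists, lay 54.3 kb upstream and spanned the start site of Nup133, a nuclear pore gene. No peak therefore lay within 3.22 kb of the Acta1 start site. Actc1, the cardiac alpha-actin that is also made in young myotubes (ENSMUSG00000068614, chr2:114047282-114053548, minus strand), had no peak in its window, and the nearest in the combined set was 204 kb downstream of its start site. The nearest peak of the 36-cycle list lay 288 kb away. Its window held 1 other protein-coding start site, against a median of 4 over all genes.

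The promoters of these genes are shown because they hold the CArG box that no nearby peak covered. They are the parts before the start in the RefSeq promoter table for GRCm38.p6, without UTR bases, read on the minus strand from chr8:123894776-123895025 for Acta1 and chr2:114052888-114053125 for Actc1. Capitals mark the CArG box in both and, in Acta1, the E-box CAGCTG before it and the MCAT element CATTCC after it.
Acta1 promoter: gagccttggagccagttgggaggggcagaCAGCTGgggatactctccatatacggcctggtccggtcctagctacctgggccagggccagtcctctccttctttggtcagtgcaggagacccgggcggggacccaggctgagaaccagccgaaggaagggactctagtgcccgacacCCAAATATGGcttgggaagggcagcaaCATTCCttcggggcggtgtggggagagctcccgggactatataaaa
Actc1 promoter: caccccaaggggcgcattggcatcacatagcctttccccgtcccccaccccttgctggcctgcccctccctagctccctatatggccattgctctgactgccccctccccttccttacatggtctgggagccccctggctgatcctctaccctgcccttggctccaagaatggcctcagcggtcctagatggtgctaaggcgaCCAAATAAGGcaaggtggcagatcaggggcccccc
In this table of 250 bases before to 50 after each start, a CArG box was found in 3 of the 8 members with an entry, Acta1, Actc1 and Actg1, and in 1.63% of 32851 promoters. Only exact matches to CCWWWWWWGG, with W for A or T, were counted, so a box that differs from it by a base would be missed. The E-box CAGCTG, a site type bound by MyoD, was found in 5 of the 8 members and in 16.3% of promoters, and CATTCC, bound by TEAD factors, in 3 of the 8 and in 14.7%. Of the 8, none held TGACTCA, the AP-1 site, which 5.20% of promoters held. A member was counted when any of its entries held the motif, whereas the percentages are over single promoters. Tpm3 has entries for separate starts, and CAGCTG was in only 1 of them.

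The smooth muscle actins differed from each other. Acta2, smooth muscle alpha-actin (ENSMUSG00000035783, chr19:34241090-34255590, minus strand), had 7 peaks, 3 of them in the first part of the gene. A 279 bp peak of the 30-cycle list began 96 bp inside the gene and spanned the start given by RefSeq, and a 242 bp peak of the same list lay 1.48 kb inside, 121 bp from the start of the transcript Acta2-202. An 804 bp peak 3.28 kb inside was in both lists, at 804 bp after 30 cycles and 282 bp after 36 cycles. The other 4 lay 60.2 to 75.0 kb downstream, nearest to the start site of Stambpl1, and 2 of them were within 1 kb of it. Actg2, the enteric smooth muscle gamma-actin (ENSMUSG00000059430, chr6:83512905-83536265, minus strand), had 1 peak, of 456 bp and in both lists, 93.1 kb downstream of its start site and 15.9 kb from that of Tet3. The stretch of the 804 bp peak inside Acta2 is shown because it holds an E-box and a CATTCC element on its minus strand sequence, in capitals, the latter in reverse as GGAATG (chr19:34251760-34252059).
Acta2 peak inside the gene: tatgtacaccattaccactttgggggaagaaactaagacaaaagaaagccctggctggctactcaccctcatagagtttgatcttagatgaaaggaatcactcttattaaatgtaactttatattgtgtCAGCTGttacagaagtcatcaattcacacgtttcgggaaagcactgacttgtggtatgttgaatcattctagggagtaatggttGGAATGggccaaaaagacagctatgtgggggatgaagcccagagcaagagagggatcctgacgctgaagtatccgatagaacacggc

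The cytoplasmic actins had the largest counts of the 10 genes, most of them away from the start sites. Actb, beta-actin (ENSMUSG00000029580, chr5:142903115-142906754, minus strand), had 20 peaks, a count reached by 0.415% of protein-coding genes, yet none touched the gene. Those nearest to its own start site were 4: a 433 bp peak of the 30-cycle list 3.16 kb upstream, a 536 bp peak in both lists 0.716 kb past its 3′ end, and peaks of 548 and 494 bp in both lists 13.9 and 22.4 kb upstream. The other 16 were nearest to neighbours. A cluster of 10 within 15.9 kb lay 82.9 to 98.5 kb downstream around the start of Tnrc18, including the widest of the window, 1288 bp and in both lists. The remaining 6 lay 29.8 to 72.3 kb upstream, were all called after 30 cycles only, and were nearest to Fscn1, which encodes the actin bundling protein fascin and whose start site had a peak 0.263 kb away. The Actb count of 20 became 14 when peaks up to 500 bp apart were joined, 7 in the 36-cycle list alone and 5 within 50 kb.

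Actg1, cytoplasmic gamma-actin (ENSMUSG00000062825, chr11:120345690-120348542, minus strand), had 14 peaks, a count reached by 2.48% of protein-coding genes, and 9 of them were nearest to its own start. A 338 bp peak of the 30-cycle list reached to 3 bp from the start site and held the starts of 6 of the 9 Actg1 transcripts. Upstream of it lay a run of peaks: 319 bp of the 30-cycle list at 0.488 kb, 728 bp in both lists at 1.09 kb, 258 bp of the 36-cycle list at 1.89 kb, and 455 bp in both lists at 4.91 kb. The 728 bp peak measured 728 bp after 30 cycles and 282 bp after 36 cycles. The other 5 of the 14 were all in both lists and lay 78.7 to 95.3 kb downstream, nearest to the start of Bahcc1. Of 100-base tiles cut from the Actg1 gene, 49.3% were not placed uniquely in the genome, against 0% for Actb and at most 3.34% for the other 9 genes, and the part of this in the peaks called over the gene was not tested.

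**Figure D2:**
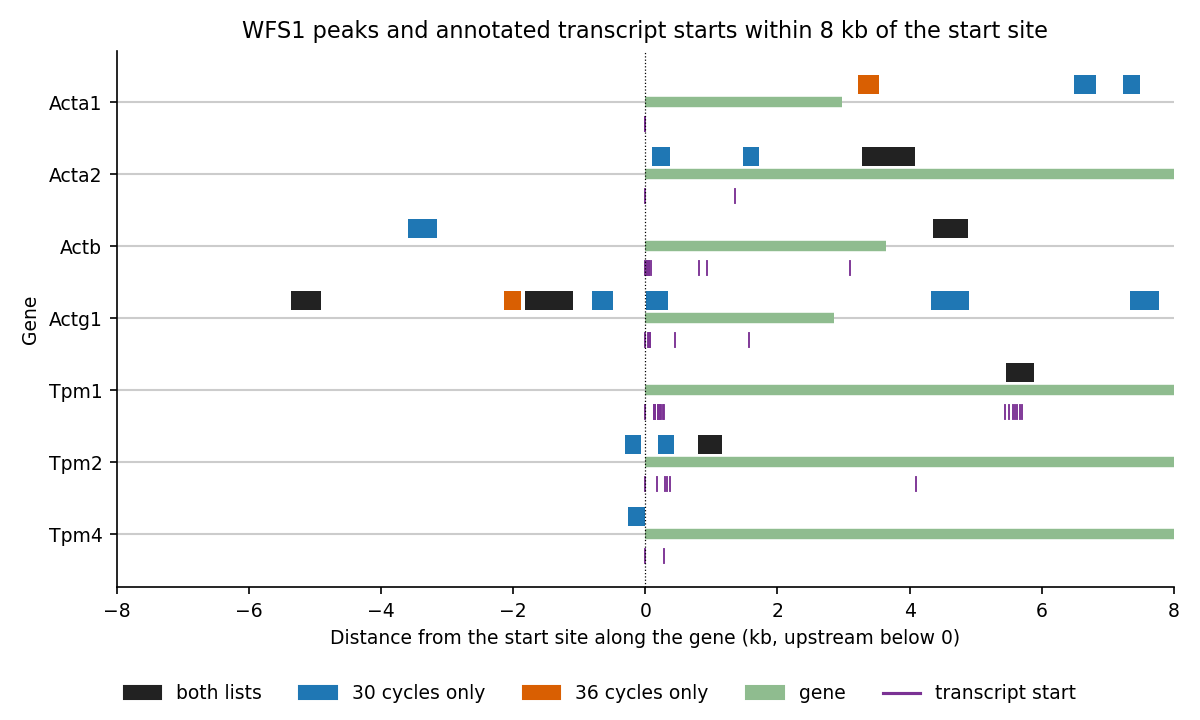
WFS1 peaks, drawn to their widths above each gene line, and annotated transcript starts, below it, within 8 kb of the start site for the 7 genes with a peak there; the x axis is distance in kb along the gene. Peaks crowd the start of Actg1 and Tpm2, and the Tpm1 peak lies over a group of internal transcript starts.

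Shown here are the upstream Actg1 peaks and its promoter, because each holds a CArG box. All are on the minus strand: the promoter part before the gene from RefSeq (chr11:120348543-120348745), the central 300 bases of the 319 bp peak (chr11:120349039-120349338) and the central 300 of the 728 bp peak (chr11:120349850-120350149). Capitals mark CArG boxes and, in the 319 bp peak, also the E-box CAGCTG that precedes its CArG box. The box of the promoter lay in no peak, between the 338 bp peak at the start site and the 319 bp peak.
Actg1 promoter: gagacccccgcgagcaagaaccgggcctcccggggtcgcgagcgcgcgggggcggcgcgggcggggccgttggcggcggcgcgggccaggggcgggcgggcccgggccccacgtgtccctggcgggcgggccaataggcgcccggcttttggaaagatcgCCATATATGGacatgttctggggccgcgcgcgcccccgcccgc
Actg1 peak at 0.488 kb: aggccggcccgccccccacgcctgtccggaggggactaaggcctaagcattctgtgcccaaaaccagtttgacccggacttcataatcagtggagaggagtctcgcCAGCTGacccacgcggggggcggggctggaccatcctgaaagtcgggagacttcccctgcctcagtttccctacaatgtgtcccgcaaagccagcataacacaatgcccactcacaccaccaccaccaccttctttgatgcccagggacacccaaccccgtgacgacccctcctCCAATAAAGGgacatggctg
Actg1 peak at 1.09 kb: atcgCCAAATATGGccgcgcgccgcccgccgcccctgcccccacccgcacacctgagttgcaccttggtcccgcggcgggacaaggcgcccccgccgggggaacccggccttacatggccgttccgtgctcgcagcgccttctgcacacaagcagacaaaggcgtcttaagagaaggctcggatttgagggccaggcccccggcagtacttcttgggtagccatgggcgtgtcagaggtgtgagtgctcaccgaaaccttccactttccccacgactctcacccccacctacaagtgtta
Over their whole length, 4 of the 64 peaks held a CArG box, or 6.25% (2.46 to 15.0), against 2.59% of all combined peaks. These Actg1 peaks were 2 of them, the Actb peak at 22.4 kb upstream was another, and the last lay in the Tnrc18 cluster. Within the central 200 bp the share was 1.56% (0.276 to 8.33), against 1.02%, so that 3 of the 4 boxes lay outside the central stretch of their peaks.

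Tpm1, alpha-tropomyosin, the main form of fast skeletal and cardiac muscle (ENSMUSG00000032366, chr9:67022590-67049406, minus strand), had 8 peaks, 5 of them in both lists. Its 5′ end had no peak within 5.46 kb. Instead, a 435 bp peak, in both lists at 391 bp after 30 cycles and 285 bp after 36 cycles, lay over the internal starts: of 21 annotated Tpm1 transcripts, 6 began inside this peak and 1 began 13 bp from it, while none of the other 14 began within 1 kb of a peak. The transcripts beginning inside it are the short forms, 5 of them protein-coding. In introns further in the gene lay a 433 bp peak in both lists, 12.3 kb from the start, and peaks of 195 bp of the 36-cycle list at 14.4 and 24.1 kb. The widest of the 64 combined peaks were also here, 1618 bp at 55.2 kb upstream and 1418 bp at 59.2 kb downstream, and 1.05% and 1.86% of all combined peaks were as wide. Each was joined from 2 peaks of either list, so that no list held a peak of that width: together the parts covered 1242 bp after 30 cycles and 1193 bp after 36 cycles in the wider one, and 984 and 1010 bp in the other. The part of the internal peak that is not UTR is shown, from chr9:67043515-67043709 on the minus strand, because it opens with the coding start of the short form, with an E-box in capitals near its end.
Tpm1 internal peak: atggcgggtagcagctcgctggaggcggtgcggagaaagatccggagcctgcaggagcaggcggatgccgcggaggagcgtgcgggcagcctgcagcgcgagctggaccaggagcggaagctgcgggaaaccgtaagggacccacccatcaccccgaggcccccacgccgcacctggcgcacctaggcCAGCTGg

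Tpm2, beta-tropomyosin (ENSMUSG00000028464, chr4:43514711-43523765, minus strand), had 7 peaks, 3 of them around the start. A 242 bp peak lay 71 bp upstream, a 252 bp peak 0.189 kb inside the gene held the starts of 3 of the 6 Tpm2 transcripts, and a 376 bp peak lay 0.791 kb inside. Both narrower peaks were called after 30 cycles only, and the 376 bp peak was in both lists, at 376 bp after 30 cycles and 232 bp after 36 cycles, which made Tpm2 the only one of the 10 genes with a start-site peak in each list. Away from the start were peaks of 510 bp in both lists and 267 bp of the 36-cycle list, nearest to Creb3, a 999 bp peak over the start of Ccdc107, and a 415 bp peak nearest to Fam166b. Its window held 12 other protein-coding starts, the most of the 10 genes. The upstream peak (chr4:43523836-43524077) and the stretch of the 376 bp peak (chr4:43522636-43522935), both on the minus strand, are shown as the edges of this group, and the E-box in the latter is in capitals.
Tpm2 upstream peak: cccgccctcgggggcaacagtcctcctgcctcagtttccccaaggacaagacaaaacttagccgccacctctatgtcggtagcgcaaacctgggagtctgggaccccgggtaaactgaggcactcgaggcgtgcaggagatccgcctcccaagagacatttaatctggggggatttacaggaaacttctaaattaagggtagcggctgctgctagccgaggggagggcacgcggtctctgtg
Tpm2 peak inside the gene: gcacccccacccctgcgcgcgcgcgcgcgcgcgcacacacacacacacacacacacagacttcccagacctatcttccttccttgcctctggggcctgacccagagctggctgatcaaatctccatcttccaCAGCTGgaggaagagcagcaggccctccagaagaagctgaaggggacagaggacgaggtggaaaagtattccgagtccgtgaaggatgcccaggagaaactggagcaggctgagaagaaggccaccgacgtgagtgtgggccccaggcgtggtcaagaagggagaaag

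The remaining tropomyosin genes had few peaks. Tpm3, which gives slow muscle tropomyosin and short cytoskeletal forms (ENSMUSG00000027940, chr3:90072649-90100902, plus strand), had 1 peak, of 195 bp and of the 36-cycle list, 20.4 kb upstream and 0.334 kb from the start of Ubap2l. None of its 16 transcripts, the internal starts included, began within 1 kb of a peak. Tpm4, a cytoskeletal tropomyosin (ENSMUSG00000031799, chr8:72134975-72153142, plus strand), had 2 peaks, both of the 30-cycle list. A 246 bp peak ended 12 bp before the annotated start and 325 bp before the RefSeq start, and a 332 bp peak lay 7.44 kb past its 3′ end and 0.290 kb from the start of Rab8a. The Tpm4 start-site peak was the only peak at the start of either gene.

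Genes counted as muscle and as cytoplasmic isoforms did not divide the peaks in 1 direction. The classes are of genes, and those of the tropomyosins are mixed, since Tpm1 and Tpm2, counted as muscle, also give non-muscle products and Tpm3, counted as cytoplasmic, also gives a muscle product. The 6 muscle genes had 27 peaks in 1.28 Mb of window, or 21.0 per Mb, and the 4 cytoplasmic genes had 37 in 0.853 Mb, or 43.4 per Mb, against 13.2 per Mb over the windows of all protein-coding genes. The difference was 22.3 peaks per Mb (6.26 to 38.4) and depended on the window and the list. With the 30-cycle list alone it was 21.2 (5.81 to 36.5), and without the smooth muscle actins 20.9 (3.65 to 38.1). It was 6.79 (-15.4 to 29.0) with windows of 50 kb, 8.30 (-2.02 to 18.6) with 200 kb and 4.34 (-7.34 to 16.0) with the 36-cycle list alone, and each of these intervals includes 0. Among the actins, at 100 kb, it was larger, with 83.6 per Mb (57.9 to 117) at Actb and Actg1 and 14.2 (7.32 to 24.7) at the muscle actins. In the tropomyosins it had the opposite sign, with 34.4 per Mb (19.3 to 56.8) at Tpm1 and Tpm2 and 6.72 (1.39 to 19.6) at Tpm3 and Tpm4. The only Tpm1 peak within 1 kb of a transcript start lay over the internal starts of the short forms. The pooled difference rested on Actb, as it fell to 5.14 per Mb (-9.62 to 19.9) without it and to -14.3 (-25.3 to -3.33) without Actb and Actg1. When only peaks nearest to the gene's own start site were counted, it was 3.94 per Mb (-6.61 to 14.5), and the order within each family was the same, with 32.0 and 7.08 per Mb in the cytoplasmic and muscle actins and 22.9 and 2.24 in Tpm1 with Tpm2 and in Tpm3 with Tpm4. A start-site peak was present in 2 of 6 muscle and in 2 of 4 cytoplasmic genes.

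**Figure D3:**
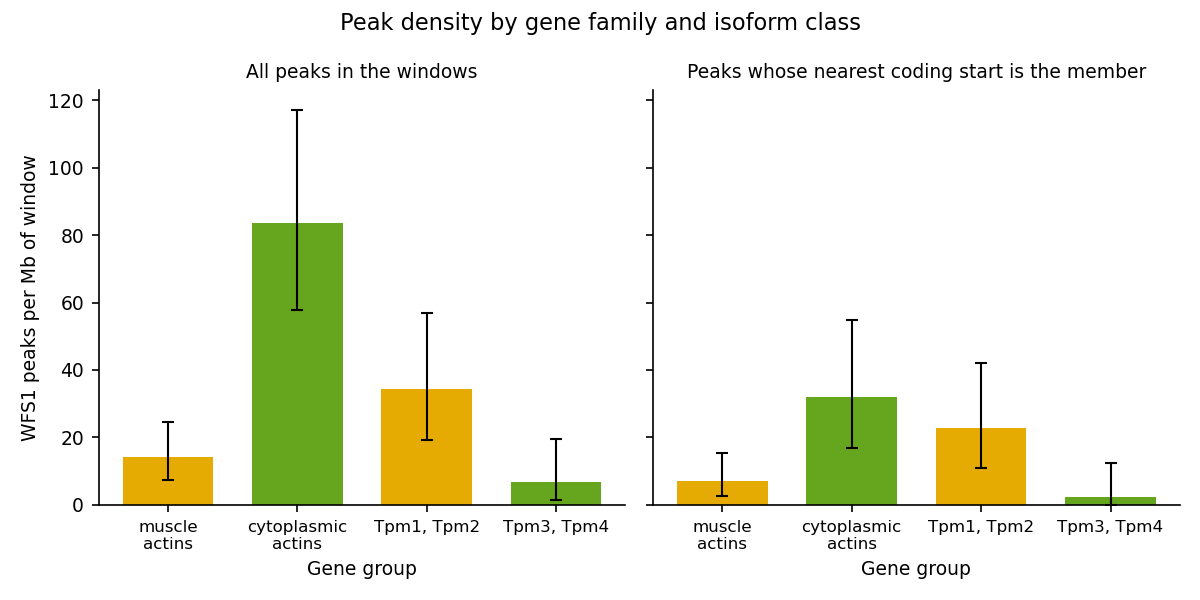
WFS1 peaks per Mb of window for muscle and cytoplasmic actins and for tropomyosin genes, counting all peaks (left) or only those whose nearest protein-coding start is the gene's own (right); bars are counts over window length and whiskers are 95% exact Poisson intervals. The cytoplasmic actins stand highest at 83.6 peaks per Mb and Tpm3 with Tpm4 lowest at 6.72.

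Counted in each list alone, the windows of the cytoplasmic actins held 32 peaks after 30 cycles and 16 after 36 cycles, those of the muscle actins 11 and 6, those of Tpm1 and Tpm2 13 and 14, and those of Tpm3 and Tpm4 2 and 1, beside 18283 and 12674 in the whole lists. Differences between these groups were not tested. Over all 64 combined peaks, 27 were in both lists, or 42.2% (30.9 to 54.4), 29 after 30 cycles only, or 45.3% (33.7 to 57.4), and 8 after 36 cycles only, or 12.5% (6.47 to 22.8). All combined peaks divided into 35.4%, 45.5% and 19.1%, each within those intervals. Of the 27 peaks in both lists, 21 (77.8%) were wider after 30 cycles, against 69.9% of all such peaks. The median width of the 64 was 393.5 bp, ranging from 195 to 1618 bp, and that of all combined peaks was 376 bp. Median widths were 471 bp for those in both lists, 333 bp after 30 cycles only and 262.5 bp after 36 cycles only, beside 623, 324 and 255 bp over all combined peaks.

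By location, 10 of the 64 peaks touched the gene, 7 of these an exon and 3 only introns, 22 lay upstream and 32 downstream. The nearest protein-coding start site was the gene's own for 30 peaks and that of another gene for 34, and 9 peaks lay within 1 kb of such another start. In the central 200 bp, CAGCTG was found in 17.2% (9.88 to 28.2) of the 64 peaks and in 18.0% of all combined peaks, TGACTCA in 12.5% (6.47 to 22.8) and 17.9%, and CATTCC in 15.6% (8.71 to 26.4) and 15.6%. For each of these motifs, searched on both strands, the share over all peaks lay within the interval of the 64.

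**Figure D4:**
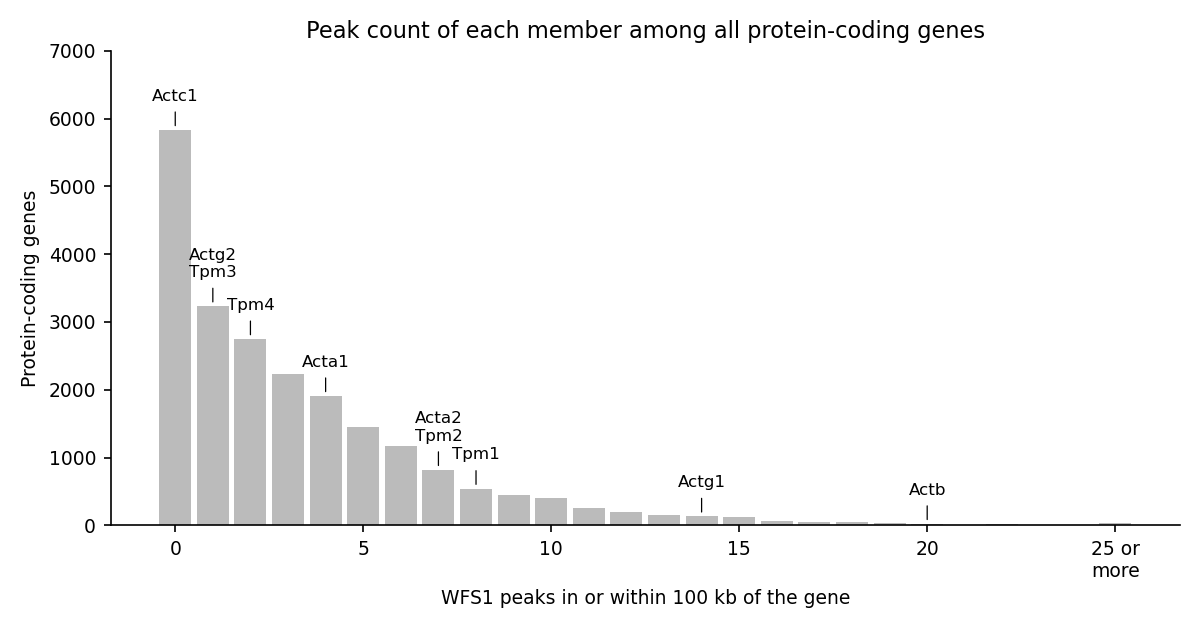
Number of protein-coding genes (y axis) by their count of WFS1 peaks in or within 100 kb (x axis), with the last bar holding genes with 25 or more and lines marking the actin and tropomyosin genes. Actc1 stands in the tallest bar at 0, and Actg1 and Actb in the tail at 14 and 20.

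Other genes of the actin filament were taken from a list by function, of which 71 were found in the annotation. From the same ChIP, the study had reported actin filament organization as an enriched theme among genes linked to WFS1-bound enhancers. The values of this list are not independent of that result. A start-site peak was present in 25 of the 71, or 35.2%, beside 13.2% of all protein-coding genes. The 30-cycle list alone gave 18, or 25.4%, beside 11.0% of all genes, and the 36-cycle list alone gave 14, or 19.7%, beside 6.02%. Their median count was 6 peaks, against 2 over all protein-coding genes, and 40, or 56.3%, had a peak touching the gene, against 24.7%. Their median length was also greater, at 27795 bp against 17403 bp. Differences between the classes were not tested. None of the 8 troponin genes, which make the calcium switch of the striated thin filament, and none of the 4 genes of SRF and its cofactors had a start-site peak, and their windows held a median of 5.5 and 7.5 peaks. With so few genes, these counts of 0 are near the background of 13.2%. Start-site peaks were found in 4 of 6 genes for calponins, transgelins and caldesmon, in 9 of 18 for monomer binding and filament turnover, in 4 of 8 for crosslinkers, in 6 of 18 for nucleation, and in 2 of 9 for thin filament length.

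**Figure D5:**
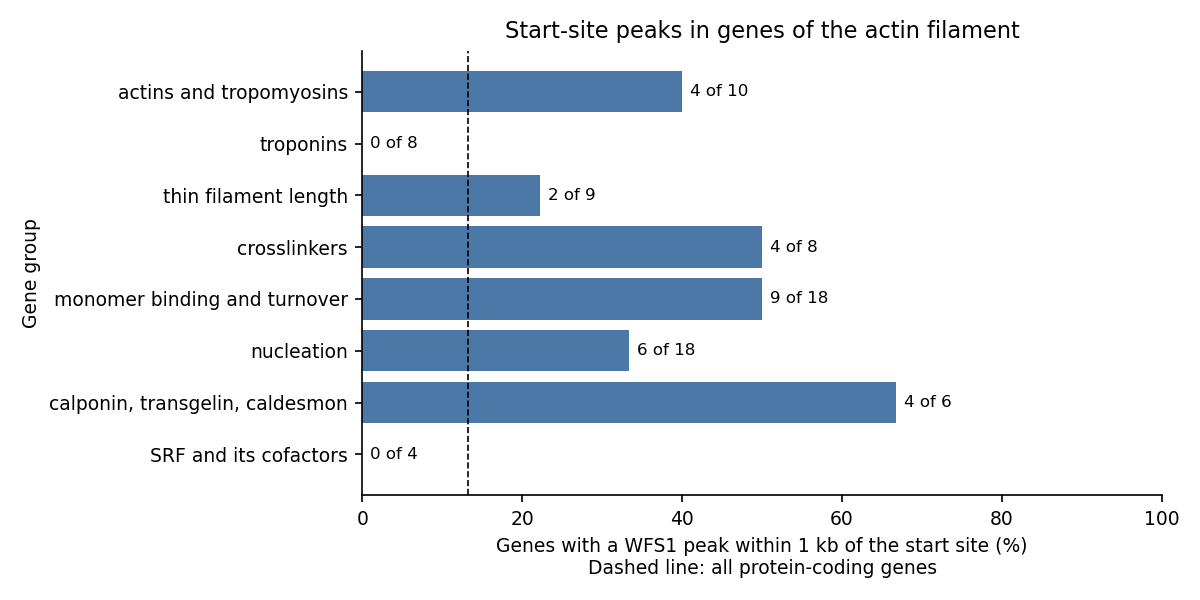
Percent of genes with a WFS1 peak within 1 kb of the start site (x axis) for the actins and tropomyosins and for classes of actin filament genes (rows), with counts beside the bars and a dashed line at 13.2% for all protein-coding genes. Troponins and SRF with its cofactors stand at 0, and the calponin, transgelin and caldesmon genes highest at 66.7%.

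The most peaks in this list were found at Mrtfa, an SRF cofactor that binds actin monomers, with 20, of which 12 touched the gene. It was followed by the formin genes Fmnl3 with 17 and Fmnl1 with 16, and by Cnn2, a calponin, with 15. Of these 4, only Cnn2 had a peak within 1 kb of its start site, at 0.0670 kb and with such a peak in each list. The gene body of Mrtfa is long, at 178477 bp, against a median of 17403 bp over all protein-coding genes, and Fscn1, also in the list, shares its 10 peaks with the Actb window.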

How the data were processed

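WFS1 ChIP-seq peak lists of wildtype C2C12 cells were used as deposited, in lists of positions that carry no score. Reads had been mapped by the authors to GRCm38 (NextGenMap), filtered on mapping quality (samtools) and submitted, library by library, to MACS2 peak calling. The control used in peak calling is not given in the sources used here. Submitters' processing notes also name deepTools.

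Overlapping or adjoining peaks of both lists were joined, with the result checked against bedtools 2.31.1 (22292 of 22292 identical), and counted in windows reaching 100 kb beyond each gene of GENCODE mouse release 21 (Ensembl 96). The members and gene lists were chosen with earlier results of these data known. Of 73 listed pathway symbols 71 were found, and Mkl1 and Mkl2, older names of Mrtfa and Mrtfb, were not. Named are all members, genes whose start is nearest to one of their peaks, and the 5 pathway genes with the most peaks, of which 1 is not reported here; pathway genes named in the closing section were chosen after their values were seen. Searched on both strands, with overlaps allowed, were the E-box CAGCTG, the AP-1 site TGACTCA, the MCAT element CATTCC and the CArG box as CCWWWWWWGG, with W for A or T. Only exact matches were counted. RefSeq promoters were available for 8 members. Tiles of 100 bases every 10 bases were mapped with minimap2 2.31, at a mapping quality of at least 10, which is not the authors' mapper. Joining, windows, distances and motif search were tested on simulated data. Alternatives were each list alone, windows of 50 and 200 kb, joining of peaks up to 500 bp apart, peaks of both lists only, other start sites and other motif spans. Python 3.11.15, numpy 2.4.6, scipy 1.17.1, pysam 0.24.0 and matplotlib 3.10.9 were used.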

Additional observations from a re-analysis of the deposited data

How the results depend on the processing

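No paired analysis was possible because the conditions have 1 library each and were not compared by a test. The count of 64 combined peaks became 58 peaks in the 30-cycle list alone and 37 in the 36-cycle list alone, 38 combined peaks within 50 kb and 107 within 200 kb, 27 when only peaks of both lists were kept and 30 when only peaks nearest to the gene's own start site were kept. It became 50 when peaks up to 500 bp apart were joined. Genes with a start-site peak fell from 4 to 1 in the 36-cycle list, while the share of all protein-coding genes fell from 13.2% to 6.02%. Those of the pathway list fell from 25 to 14, or from 35.2% to 19.7%. The excess at cytoplasmic over muscle genes, 22.3 peaks per Mb, was 21.2 in the 30-cycle list and 20.9 without the smooth muscle actins. It was 6.79 within 50 kb, 8.30 within 200 kb, 4.34 in the 36-cycle list, 69.5 among actins and -27.7 among tropomyosins. It was 5.14 without Actb, -14.3 without Actb and Actg1 and 3.94 with nearest start sites only, settings that were chosen after seeing the data. Over whole peaks, CAGCTG was found in 29.7% of the 64 (32.8% of all combined peaks), TGACTCA in 23.4% (31.2%) and CATTCC in 28.1% (29.4%). In the central 100 bp, the shares were 14.1% (9.78%) for CAGCTG, 4.69% (9.50%) for TGACTCA, 7.81% (8.22%) for CATTCC and 0% (0.543%) for the CArG box. Wider spans hold more bases, and the causes of the other differences were not tested. With no read counts, a peak absent from a list cannot be told apart from one below its detection limit, and which library was sequenced more deeply is unknown. Without a replicate immunoprecipitation, no value has an error beyond counting error.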

Other observations

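Among the actin filament genes, some families divided by isoform in a way that was noticed after the values were seen and was not tested. Calponin 1 and transgelin, which mark contractile smooth muscle, had no peak near the start site: the nearest was 101 kb away for Cnn1 and 74.9 kb away for Tagln. Their widely expressed relatives had one close by, at 0.0670 kb for Cnn2, 0.0440 kb for Cnn3 and 0.0150 kb for Tagln2. Cnn2 and Cnn3 had a start-site peak in each list, and Tagln2 in the 30-cycle list only. Of the smooth muscle actins, Acta2 went the other way, with a peak 0.0960 kb from its start site, and Actg2 had none within 93.1 kb. The alpha-actinins did not divide by isoform. Actn1, the non-muscle form, had a peak 0.0430 kb from its start and Actn4, also non-muscle, 4.12 kb from it, whereas of the sarcomeric forms Actn3 had its start inside a peak and Actn2 had none within 79.9 kb. Start sites inside a peak were also those of Pfn1, which encodes a profilin that delivers monomers to growing filaments, Capza1, a subunit of capping protein, Arpc1b, a subunit of the Arp complex that nucleates branches, and Cald1, caldesmon. The share of all protein-coding genes with a start inside a peak was not counted. Pfn1 had a start-site peak in each list, Capza1, Arpc1b and Cald1 in the 30-cycle list only, and Actn3 in the 36-cycle list only. Of the cofilin genes, the non-muscle form Cfl1 had a start-site peak at 0.726 kb in the 36-cycle list only, and the muscle form Cfl2 at 0.395 kb in the 30-cycle list only.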
